A study of Mus musculus with 2 samples.

Results

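Kruppel-like factors (Klf) were followed in 46C mouse embryonic stem cells transfected with the PB-Gbx2 vector and in cells transfected with the empty PB vector. The 9 members Klf2, Klf3, Klf4, Klf5, Klf6, Klf9, Klf10, Klf13 and Klf16 were taken by symbol. All 9 have a row among the 14500 gene symbols of the table. 46C is a mouse embryonic stem cell line that carries a green fluorescent protein reporter in the Sox1 locus. Both cultures grew on gelatin-coated plates in medium with serum and LIF, the cytokine that keeps mouse stem cells undifferentiated, and both were at passages 21 to 24. Gbx2 is a homeobox transcription factor. Each group has 1 library, so no value has a replicate error and no difference between the vectors could be tested. The groups follow the titles of the libraries, which match the table's column names apart from a suffix, P3, that both columns carry. The source names state the opposite assignment, and if they were right every direction given here would turn around. Gbx2 itself had a level of 1178 in the PB-Gbx2 library and 345 in the PB library, which goes with the titles.

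Kruppel-like factors bind GC-rich and CACCC sequences through a cluster of zinc fingers at the carboxyl end, and the parts outside the fingers set what each one does. Klf2, Klf4, Klf5, Klf6 and Klf7 mostly activate transcription and recruit acetyltransferases, Klf3, Klf8 and Klf12 repress with the corepressor CtBP, and Klf9, Klf10, Klf11, Klf13 and Klf16 bind the Sin3a corepressor. In mouse embryonic stem cells Klf2, Klf4 and Klf5 overlap in function, and together they hold the cells in the self-renewing state. Klf4 is a direct target of Stat3 downstream of the LIF receptor, Klf5 also responds to LIF, and Klf2 depends more on the factor Oct4. Klf2, Klf4 and Klf5 are together called the LIF-responsive set here, a name that is looser for Klf2.

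The upstream sequences of 4 members are shown as examples of the sequence next to the start of members that lay in different directions. No value here links a level to these windows. Klf4 and Klf2 belong to the LIF-responsive set, Klf9 was higher in the PB-Gbx2 library, and Klf6 was only slightly lower there (570 in PB-Gbx2, 655 in PB). They come from RefSeq (build GRCm38.p6), run 5′ to 3′ on the strand of the gene, and cover the 250 bases before the annotated transcript start. The positions are chr4:55532476-55532725 on the minus strand for Klf4 and, on the plus strand, chr8:72318812-72319061 for Klf2, chr19:23140976-23141225 for Klf9 and chr13:5861239-5861488 for Klf6. Capitals mark matches on either strand. The motifs are the GC box with the letters GGGCGG, the box named after its letters CACCC, the box named after its letters CCAAT, the spacing of a Stat site written TTCNNNGAA, the E-box with the letters CACGTG and the TATA box with the letters TATAAA. Matches that touch or overlap form 1 run of capitals.
Klf4: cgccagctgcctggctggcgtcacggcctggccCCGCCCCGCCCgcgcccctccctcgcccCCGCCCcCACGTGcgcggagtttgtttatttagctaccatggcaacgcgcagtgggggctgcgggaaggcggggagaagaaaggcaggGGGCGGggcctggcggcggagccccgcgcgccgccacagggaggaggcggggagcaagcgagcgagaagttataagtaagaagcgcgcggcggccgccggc
Klf2: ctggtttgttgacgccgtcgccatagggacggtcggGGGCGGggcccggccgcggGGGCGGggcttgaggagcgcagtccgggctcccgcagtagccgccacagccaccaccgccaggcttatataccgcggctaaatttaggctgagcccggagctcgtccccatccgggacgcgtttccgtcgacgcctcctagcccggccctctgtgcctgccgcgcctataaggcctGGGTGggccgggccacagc
Klf9: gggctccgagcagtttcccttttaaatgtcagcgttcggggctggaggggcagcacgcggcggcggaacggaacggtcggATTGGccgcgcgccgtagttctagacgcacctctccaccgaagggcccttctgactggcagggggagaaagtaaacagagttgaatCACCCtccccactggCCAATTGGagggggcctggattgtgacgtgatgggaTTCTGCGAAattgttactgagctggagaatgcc
Klf6: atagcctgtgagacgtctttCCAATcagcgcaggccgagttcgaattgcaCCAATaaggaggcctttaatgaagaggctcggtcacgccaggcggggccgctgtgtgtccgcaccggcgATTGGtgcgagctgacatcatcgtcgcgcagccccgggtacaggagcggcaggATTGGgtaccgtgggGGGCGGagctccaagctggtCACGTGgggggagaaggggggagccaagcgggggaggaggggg

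A promoter entry was found for 6 of the 9 members, the 4 shown and Klf3 and Klf13. The share of G and C in these windows ran from 59.6% for Klf9 to 78.4% for Klf3, while the median over 32851 mouse promoter windows was 52.4%. A GC box was present in Klf4 (4 matches), Klf2 (2), Klf3 (6), Klf13 (3) and Klf6 (1), and in 32.7% of all windows. All 6 windows were richer in G and C than that median, and the share over all windows was not adjusted for it. Klf9 had no GC box match, and it alone among the 6 had a match to TTCNNNGAA, at base -33, which 7.02% of all windows hold. No such match lies in the Klf4 or Klf2 window. CACCC was found in Klf2 (1), Klf3 (5), Klf9 (1) and Klf13 (1), and in 52.0% of all windows. CCAAT was found in Klf6 (4), Klf9 (3) and Klf13 (2), and in 33.8% of all windows. The E-box was found in Klf4 and Klf6, once each, and in 6.02% of all windows. TATAAA was in none of the 6 and in 12.4% of all windows. These matches describe letters in a short window and not binding.

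The members were not equally abundant, and Klf4 was the most abundant in both libraries. Levels of different genes were set side by side per kilobase (kb) of the longest annotated transcript. Klf4 had a level per kb of 3606 in the PB-Gbx2 library and 1552 in the PB library, which put it at rank 233 and rank 676 of 14160 genes with a length. Klf2 came next, with 2110 per kb in the PB-Gbx2 library and 1413 in the PB library. Both stood above every other member in both libraries.

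In the PB-Gbx2 library the order per kb after Klf4 and Klf2 was Klf9 (671), Klf10 (609), Klf3 (424), Klf16 (366), Klf5 (326), Klf13 (151) and Klf6 (135). In the PB library it was Klf10 (688), Klf5 (539), Klf9 (368), Klf16 (328), Klf3 (219), Klf6 (155) and Klf13 (79.6). Klf5 thus held place 7 of 9 in the PB-Gbx2 library and place 4 in the PB library. As no replicate gives a spread, the steps between neighbours were set beside the SD of between-library log2 ratios of genes of similar level, 0.31 to 0.41 at these levels. In the PB-Gbx2 library the steps from Klf9 to Klf10, Klf3 to Klf16, Klf16 to Klf5 and Klf13 to Klf6 were smaller than that SD. In the PB library those from Klf4 to Klf2 and from Klf9 to Klf16 were smaller. With the median transcript length of each gene in place of the longest, Klf4 stayed first in both libraries. Klf2 then came in place 3 in both, after Klf3 in the PB-Gbx2 library and after Klf10 in the PB library. Klf5 was then at place 9 in the PB-Gbx2 library and place 8 in the PB library. The order below Klf4, with the shift in the place of Klf5, thus rests on the length used.

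**Figure D1:**
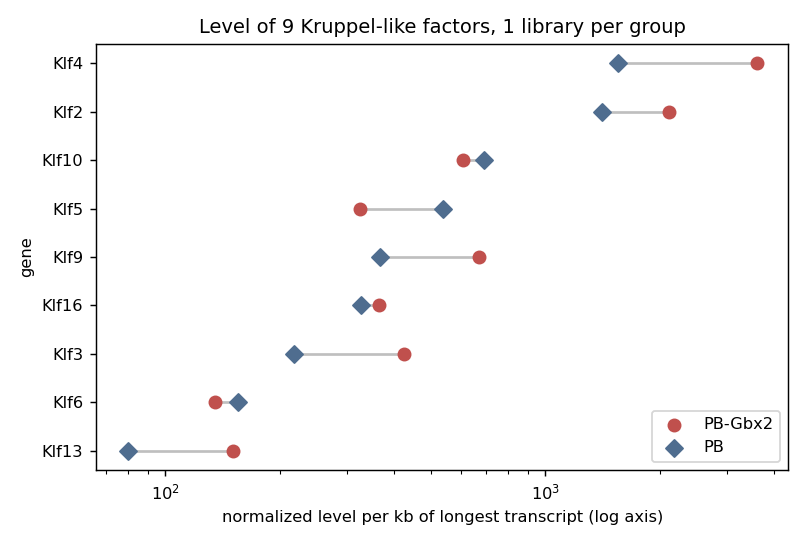
Normalized level per kb of the longest transcript (horizontal log axis) for the 9 Kruppel-like factors (vertical axis), with a circle for the PB-Gbx2 library and a diamond for the PB library, 1 library each. Klf4 lies at 3606 in PB-Gbx2 and 1552 in PB, and Klf5 at 326 in PB-Gbx2 and 539 in PB.

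Between the libraries, Klf4 differed most. Its normalized level was 10924 in the PB-Gbx2 library and 4701 in the PB library, 2.32-fold higher, with a log2 ratio of 1.22. Log2 ratios were taken as PB-Gbx2 over PB on log2(level + 1). Klf4 was the 1 member of 9 at least 2-fold higher in PB-Gbx2, and no member was 2-fold lower. Across all 14500 genes, 5.14% passed the same fold upwards and 5.26% downwards. Genes of low level scatter more, and among the 5442 genes within the members' range of mean levels (612.5 to 7812.5) the shares were 0.974% higher and 0.772% lower. Each gene was also placed among the 725 genes in its twentieth of mean level, called genes of similar level here. In the highest of these groups, which starts at a mean level of 4195, the log2 ratio of Klf4 stood at percentile 99.6, and the SD was 0.33. The adjusted p of Klf4 is 0.0421 in the authors' deposited table, and it rests on 1 library per group. In bulk RNA, fewer cells with a transcript and less transcript per cell cannot be told apart.

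Klf2, which acts beside Klf4 in the naive network, had a level of 3898 in the PB-Gbx2 library and 2610 in the PB library. It was 1.49-fold higher, with a log2 ratio of 0.58 at percentile 95.9 among genes of similar level, inside the middle 95% of them. Klf5 lay in the other direction. Its level was 1092 in the PB-Gbx2 library and 1808 in the PB library, which is 1.66-fold lower in PB-Gbx2, with a log2 ratio of -0.73 at percentile 1.66. For both genes the authors' deposited table lists an adjusted p of 1. The 3 LIF-responsive factors thus ran from -0.73 to 1.22 and did not share a direction.

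Klf5 is also known as a regulator of the trophectoderm, the outer layer of the blastocyst. Of 10 trophectoderm markers, 6 have a row, while Cdx2, Elf5, Gata3 and Hand1 have none. Their median log2 ratio was -0.76, and their summed level was 3203 in the PB-Gbx2 library and 2711 in the PB library, most of it from Tfap2c (2439 in PB-Gbx2, 1441 in PB). Of the 6, 4 lay below 0 and 2 above, which were Tfap2c and Eomes (215 in PB-Gbx2, 128 in PB). Krt7 (4 in PB-Gbx2, 43 in PB), Krt8 (225 in PB-Gbx2, 532 in PB) and Krt18 (164 in PB-Gbx2, 363 in PB) were at least 2-fold lower in PB-Gbx2. Across all genes 5.26% passed that fold downwards, and the levels of Krt7 were low. The part of trophectoderm markers in the Klf5 ratio was not tested.

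Among the other 6 members, Klf3, Klf13 and Klf9 were the ones that differed. Klf3, a repressor studied in red cell and fat cell formation, had a level of 2212 in the PB-Gbx2 library and 1142 in the PB library (1.94-fold higher, log2 ratio 0.95, percentile 99.3). On the annotation 404 exon bases of Klf3 are shared with Gm20033, a transcript of the opposite strand. The library kit named in the labels does not mark strand, so reads from these bases cannot be told apart. None of the other 8 members shares exon bases with another annotated gene. Klf13, a factor best known from T lymphocytes, stood at 964 in the PB-Gbx2 library and 509 in the PB library (1.89-fold higher, log2 ratio 0.92, percentile 99.3). Klf9, which glucocorticoids and thyroid hormone induce in many tissues, stood at 3010 in the PB-Gbx2 library and 1652 in the PB library (1.82-fold higher, log2 ratio 0.87, percentile 99.0). Adjusted p-values in the authors' deposited table are 0.503 for Klf3, 0.649 for Klf9 and 1 for Klf13.

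The 3 remaining members differed by less than 1.2-fold. Klf16, a small Sin3a-binding factor, stood at 978 in the PB-Gbx2 library and 878 in the PB library. Klf10, an early gene of the TGF-beta response, stood at 1854 in the PB-Gbx2 library and 2094 in the PB library. Klf6, a broadly expressed activator that binds GC boxes, stood at 570 in the PB-Gbx2 library and 655 in the PB library. Their log2 ratios were 0.16, -0.18 and -0.20, at percentiles 69.4, 24.6 and 26.1, all within 1 SD of genes of similar level.

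Of the members as a set, 6 of 9 lay above 0 and 3 below, with a median log2 ratio of 0.58, while the median of all genes was 0.00. At a 1.5-fold threshold 4 members were higher (Klf3, Klf4, Klf9 and Klf13) and Klf5 was lower. The share of all genes past this fold was 11.6% higher and 12.2% lower, and within the members' range of levels it was 3.88% and 3.93%. The same 4 members lay above the middle 95% of genes of similar level and Klf5 lay below it, where by construction 2.61% and 2.62% of all genes lie. The median log2 ratio was 0.58 for Klf2, Klf4 and Klf5 and 0.51 for the other 6 members, which ran from -0.20 to 0.95. The means were 0.36 for Klf2, Klf4 and Klf5 and 0.42 for the other 6, in the opposite order. The ratios of the LIF-responsive set thus spread on both sides of those of the other 6. With 1 library per group no difference between the sets was tested.

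**Figure D2:**
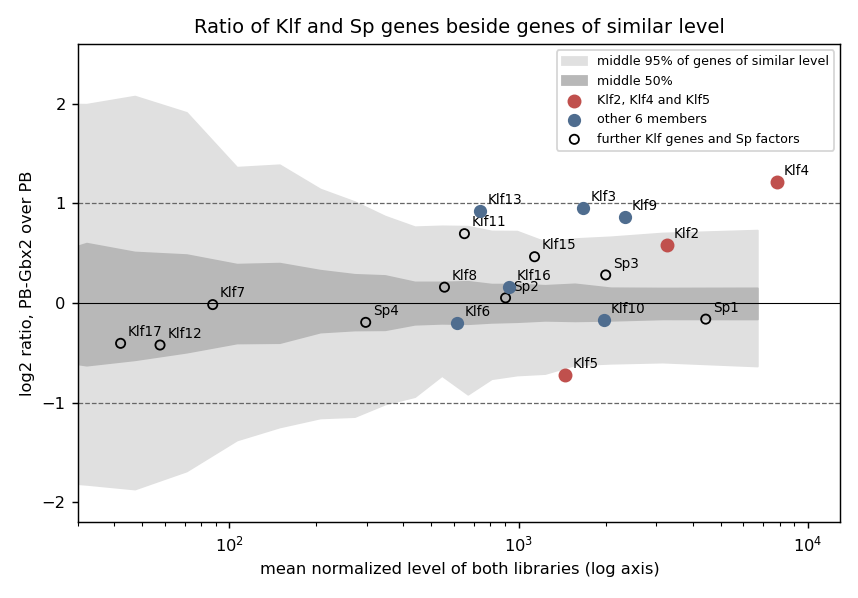
Log2 ratio of PB-Gbx2 over PB (vertical axis) against the mean normalized level of both libraries (horizontal log axis), with members as filled circles, further Klf and Sp genes as open circles, and the middle 95% and 50% of all genes by level as grey bands. Dashed lines mark 2-fold. Klf4 (1.22), Klf3, Klf13 and Klf9 lie above the outer band, Klf5 (-0.73) lies below it, and Klf2 (0.58) lies inside.

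Summed per kb, Klf2, Klf4 and Klf5 made up 72.0% of the 9 members' level in the PB-Gbx2 library and 65.6% in the PB library, and most of it came from Klf4 and Klf2. Klf4 alone made up 42.9% in the PB-Gbx2 library and 29.1% in the PB library. The share of Klf2 was 25.1% in the PB-Gbx2 library and 26.5% in the PB library, and that of Klf5 was 3.88% in the PB-Gbx2 library and 10.1% in the PB library. Per kb, Klf4 exceeded Klf5 by 11.1-fold in the PB-Gbx2 library and by 2.88-fold in the PB library. Klf4 exceeded Klf2 by 1.71-fold in the PB-Gbx2 library and by 1.10-fold in the PB library. These values rest on the longest transcript, which has 3029 bases for Klf4 and 3352 for Klf5. The median transcript length is 859 bases for Klf4 and 3102 for Klf5. Dividing by it therefore raises the level per kb of Klf4 far more than that of Klf5. With the median transcript length, a setting chosen for shares and ratios after seeing the data, Klf4 made up 58.0% in the PB-Gbx2 library and 44.4% in the PB library. The share of Klf2 was then 9.62% in the PB-Gbx2 library and 11.5% in the PB library, and that of Klf5 was 1.61% in the PB-Gbx2 library and 4.73% in the PB library. Klf4 then exceeded Klf5 by 36.1-fold in the PB-Gbx2 library and by 9.39-fold in the PB library, and Klf2 by 6.03-fold in the PB-Gbx2 library and by 3.87-fold in the PB library. On both lengths the shares of Klf2 and Klf5 were lower, and that of Klf4 higher, in the PB-Gbx2 library.

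**Figure D3:**
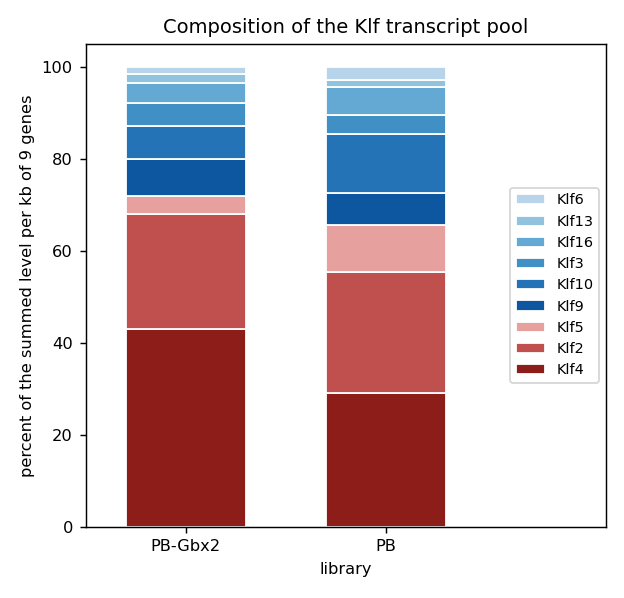
Share of the summed level per kb of the 9 members (vertical axis, percent) held by each gene in the PB-Gbx2 library (left bar) and the PB library (right bar), with Klf4, Klf2 and Klf5 in reds from the bottom and the other 6 in blues. The red part is 72.0% in PB-Gbx2 and 65.6% in PB, with Klf5 at 3.88% in PB-Gbx2 and 10.1% in PB.

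The rest of the Klf family held no gene past 2-fold. Of 8 further Klf genes 6 have a row, while Klf1 and Klf14 have none. Klf11, the nearest relative of Klf10, stood at 804 in the PB-Gbx2 library and 496 in the PB library (1.62-fold higher). Klf15, a regulator of metabolism in muscle and liver, stood at 1318 in the PB-Gbx2 library and 955 in the PB library (1.38-fold higher). Klf8, a relative of Klf3, stood at 585 in the PB-Gbx2 library and 524 in the PB library. Klf7 (87 in PB-Gbx2, 88 in PB), Klf12 (49 in PB-Gbx2, 66 in PB) and Klf17 (36 in PB-Gbx2, 48 in PB) had the lowest levels per kb of the family. Their ratios of 0.99, 0.74 and 0.75 lay within 1 SD of genes as low as they are.

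By mode of action, the Sin3a-binding Klf genes had a median log2 ratio of 0.70 over 5 genes, 4 above 0 and Klf10 below. The acetyltransferase-recruiting group had a median of -0.02 over 5 genes, 2 above 0 (Klf2 and Klf4) and 3 below (Klf5, Klf6 and Klf7). That median is the value of Klf7 (87 in PB-Gbx2, 88 in PB), which had a low level. The CtBP-binding group, with Klf3, Klf8 and Klf12, had a median of 0.16, the value of Klf8. Klf12 (49 in PB-Gbx2, 66 in PB) had a low level. Each median rests on few genes, and differences between these groups were not tested. The Sp factors, which share the zinc finger fold and bind the same GC boxes, differed little. Sp1 stood at 4195 in the PB-Gbx2 library and 4694 in the PB library, Sp3 at 2198 in the PB-Gbx2 library and 1808 in the PB library, Sp2 at 918 in PB-Gbx2 and 886 in PB, and Sp4 at 276 in PB-Gbx2 and 316 in PB. Their median was -0.06 over 4 of 9 listed genes.

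Genes of the LIF pathway, which acts on Klf4 and Klf5, lay close together. All 6 genes from the LIF receptor to Stat3 and its inhibitor had log2 ratios below 0, from -0.37 to -0.06, with a median of -0.19 and none past 2-fold. Socs3, the feedback inhibitor that Stat3 induces, stood at 5692 in the PB-Gbx2 library and 7332 in the PB library. Il6st (gp130), the signalling subunit of the receptor, stood at 1940 in the PB-Gbx2 library and 2498 in the PB library. In the Erk5 cascade, which induces Klf2 in endothelial cells, 4 of 6 genes lay below 0, the median was -0.12 and none passed 2-fold. Map3k2, a kinase at its top, stood at 316 in the PB-Gbx2 library and 577 in the PB library, and the factor Mef2a at 206 in the PB-Gbx2 library and 156 in the PB library.

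Genes of the naive network that act with Klf2, Klf4 and Klf5 lay in the direction of Klf4 for 9 of 11, with a median log2 ratio of 0.50. Of the 11, 4 were at least 2-fold higher, a fold that 5.14% of all genes passed upwards. Nanog, which Klf factors bind and activate in these cells, stood at 19872 in the PB-Gbx2 library and 8918 in the PB library. Prdm14, a repressor of differentiation genes, stood at 570 in the PB-Gbx2 library and 256 in the PB library. Tbx3 (6107 in PB-Gbx2, 3029 in PB) and Zfp42 (16671 in PB-Gbx2, 8320 in PB) were close to the 2-fold line. No member of this list was 2-fold lower. Tfcp2l1 (11892 in PB-Gbx2, 12900 in PB) and Nr0b1 (529 in PB-Gbx2, 668 in PB) lay below 0. Among the 9 above 0, Pou5f1 (log2 ratio 0.17) and Sox2 (0.06) differed little.

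Most genes that act on Klf proteins differed little, and Crebbp differed most. Of the ubiquitin ligases that target Klf proteins, 4 of 6 lay above 0, none passed 2-fold and the median was 0.18. The highest ratios were those of Fbxo32 (56 in PB-Gbx2, 44 in PB) and Btrc (627 in PB-Gbx2, 518 in PB), and the lowest was that of Fbxo22 (2038 in PB-Gbx2, 2198 in PB). Of 9 cofactors, which include CtBP, Sin3 and acetyltransferase genes, 4 lay above 0, none passed 2-fold and the median was -0.06. The acetyltransferase gene Crebbp stood at 682 in the PB-Gbx2 library and 446 in the PB library (1.53-fold higher, percentile 94.6). The deacetylase gene Hdac2 stood at 3822 in the PB-Gbx2 library and 3194 in the PB library.

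Hormone and growth factor genes tied to single members were mixed. Glucocorticoid-responsive genes, the group to which Klf9 belongs in other tissues, had a median of 0.45 over 7, with 4 above 0 and none past 2-fold. The kinase gene Sgk1 stood at 4701 in the PB-Gbx2 library and 2630 in the PB library, and the receptor gene Nr3c1 at 377 in the PB-Gbx2 library and 211 in the PB library. Per1 (1100 in PB-Gbx2, 1590 in PB), Fkbp5 (3268 in PB-Gbx2, 3641 in PB) and Dusp1 (469 in PB-Gbx2, 526 in PB) lay below 0. The median is the value of Tsc22d3 (36 in PB-Gbx2, 26 in PB), which like Zbtb16 (18 in PB-Gbx2, 11 in PB) had a low level. TGF-beta and Smad genes, with which Klf10 is linked, had a median of 0.21 over 7, and 6 lay above 0. The receptor gene Tgfbr2 (44 in PB-Gbx2, 12 in PB) was at least 2-fold higher, as were 5.14% of all genes. Its level was low, and at percentile 96.3 it lay inside the middle 95% of genes of similar level. The ligand gene Tgfb1 stood at 406 in the PB-Gbx2 library and 241 in the PB library, whereas Klf10 itself had a log2 ratio of -0.18.

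**Figure D4:**
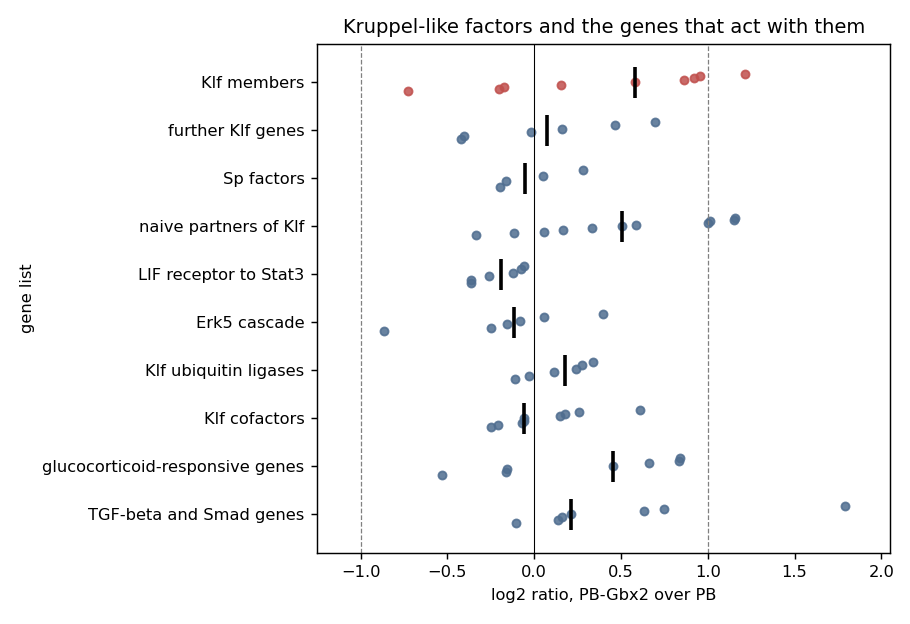
Log2 ratio of PB-Gbx2 over PB (horizontal axis) for each gene (points) of 10 lists (vertical axis), with list medians as black bars and dashed lines at 2-fold. The 9 members run from -0.73 to 1.22, the LIF receptor to Stat3 genes lie slightly below 0 (-0.37 to -0.06), and naive partners have a median of 0.50.

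Of the stem cell markers, all 10 have a row, with levels from 2753 to 31035 in the PB-Gbx2 library and from 1324 to 31035 in the PB library. Fbxo15 (2753 in PB-Gbx2, 1324 in PB), Nanog and Zfp42 were at least 2-fold higher. Many markers of other cell types have no row. Summed levels were 1032 in the PB-Gbx2 library and 1633 in the PB library for fibroblasts (4 of 10 with a row), and 228 in PB-Gbx2 and 162 in PB for endoderm (5 of 10). They were 268 in PB-Gbx2 and 48 in PB for mesoderm (3 of 8), and 1669 in PB-Gbx2 and 1856 in PB for neural cells (4 of 8). Most of the fibroblast sum came from Thy1 (492 in PB-Gbx2, 866 in PB) and Pdgfrb (486 in PB-Gbx2, 626 in PB). The collagen gene Col1a1 (36 in PB-Gbx2, 132 in PB) was at least 2-fold lower. Col1a2 (18 in PB-Gbx2, 9 in PB), Gata4 (68 in PB-Gbx2, 36 in PB) and Nes (733 in PB-Gbx2, 405 in PB) were below 2-fold on this scale. Gata6 (45 in PB-Gbx2, 18 in PB), Kdr (226 in PB-Gbx2, 24 in PB), T (24 in PB-Gbx2, 6 in PB) and Sox1 (56 in PB-Gbx2, 10 in PB) were at least 2-fold higher. Across all genes 5.14% passed this fold upwards and 5.26% downwards. At these low levels Gata6 (percentile 91.7) and T (91.8) lay inside the middle 95% of genes of similar level. Kdr (99.9) and Sox1 (99.0) lay above it. The neural genes Tubb3 (756 in PB-Gbx2, 1248 in PB) and Map2 (124 in PB-Gbx2, 193 in PB) were lower, by less than 2-fold. The part of such cells in the Klf ratios was not tested.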

How the data were processed

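RNA of 2 cultures was sequenced from TruSeq libraries, per the labels' protocols. Per the submitters' processing notes, STAR was used with build mm9. A counting tool, an annotation and versions were not given in the sources used here. Levels in the deposited table are whole numbers that the authors normalized, used here as a score and not as counts, since sorting each library by value gives identical columns over all 14501 rows, as after quantile normalization. The total and the overall distribution are thus equal by construction, and depth is unknown, so no counting interval could be given. The authors' deposited ratio and its log2 run PB over PB-Gbx2, and their p-values are quoted only as theirs.

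The 2 rows with a shared symbol were summed (14500 symbols). Log2 ratios used a pseudocount of 1, which understates changes of low genes, and genes were called at 2-fold. Each gene was placed among the 725 genes in its twentieth of mean level. Lengths came from the longest GENCODE M21 transcript (14160 genes), promoters from RefSeq. The calculation was run on simulated data with planted ratios past the 2-fold line and less scatter than these data. That checks the arithmetic only. The named genes were all members, all further Klf and Sp genes, and from each list those past 2-fold and up to 2 largest ratios. A few genes that this rule covers are left out here. Some genes beyond it were added, mostly ones that lay the other way. Members and lists were chosen with earlier results of these data known. Alternatives were other pseudocounts (0.1 and 5), median centring, a 1.5-fold threshold, minimum levels (5 and 100), the mean for the median, and other lengths and gene pools. Python 3.11.15, numpy 2.4.6 and pandas 2.3.3 were used.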

Additional observations from a re-analysis of the deposited data

How the results depend on the processing

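No paired analysis was possible because there is a single library on either side, and for the same reason none could be left out. Pseudocounts of 0.1 and 5 moved the log2 ratio of no member by more than 0.0053, and centring on the median moved none, since the deposited values share one distribution, so these settings say little about stability. A 1.5-fold threshold gave 4 members higher and 1 lower in PB-Gbx2, and among all genes 1684 higher and 1770 lower. A minimum level of 100 in either library gave 269 genes higher and 259 lower. The share of Klf2, Klf4 and Klf5 was 65.1% in the PB-Gbx2 library and 58.4% in the PB library with the further Klf genes added, and 62.4% and 56.8% with levels not divided by length. It kept its direction between the libraries in each. With the mean in place of the median, Klf2, Klf4 and Klf5 averaged 0.36 and the other 6 members 0.42, so the order of the 2 sets turned around. The median transcript length and the longest protein-coding transcript were settings chosen after seeing the data for the shares, as was the latter for the order. The median length moved the place of 7 members in the PB-Gbx2 library and 8 in the PB library, and the protein-coding transcript moved none.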

Other observations

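The genes with the most similar values to each LIF-responsive factor were taken as the 3 nearest in the plane of mean log2 level and log2 ratio over the 2 libraries. Nearest to Klf4 were Trp53inp1 (10938 in PB-Gbx2, 5293 in PB), Srsf5 (11393 in PB-Gbx2, 5804 in PB) and Ccng1 (13646 in PB-Gbx2, 5286 in PB), at distances of 0.18, 0.28 and 0.32. Trp53inp1 and Ccng1 are known targets of p53, and Srsf5 encodes a splicing factor. Nearest to Klf2 were Dnajc21, Inpp5d and Neat1, at distances of at most 0.037. Among the nearest to Klf5 were Casc5 and Ppm1j, at distances of 0.026 and 0.062.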
